A study of Mus musculus with 6 samples.

Results

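The Wnt pathway genes described here are 47 ligands, receptors, inhibitors, signal transducers and target genes, chosen by gene symbol. Of these, 44 had a row in the table of array signals, each with 1 row, among 22206 transcript clusters and 19505 gene symbols in all. Ctnnb1, Rnf43 and Tcf7 were not analysed here. By role, the measured genes were 12 ligands, 12 receptors and coreceptors, 5 genes of the R-spondin branch, 9 inhibitors, 3 nuclear factors of the TCF/LEF family and 3 feedback targets.

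Müllerian ducts, which give rise to the oviducts, uterus and upper vagina, were dissected from E17.5 mouse embryos, with 1 Affymetrix array per embryo, to ask what the kinases LATS1 and LATS2 do in the development of these ducts. The 3 mutant embryos had the genotype Lats1f/f,Lats2f/f,Amhr2cre/+ and the 3 control embryos Lats1f/f,Lats2f/f. Both groups therefore carried the floxed alleles of Lats1 and Lats2, and the mutants also had Cre in 1 allele of Amhr2, the receptor gene of anti-Müllerian hormone. Amhr2 is known to be active in the mesenchyme around the duct, while each array reads mesenchyme and epithelium together. The sources used here do not give the sex of the embryos.

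Wnt proteins are secreted lipid-modified signals that bind Frizzled receptors. With the coreceptors LRP5 or LRP6, this stabilises beta-catenin, which then acts in the nucleus through TCF and LEF factors. Secreted proteins of the SFRP family bind Wnts, DKK proteins block the coreceptors, and R-spondins keep Frizzled receptors on the cell surface. In the mouse, Wnt4 is needed for the duct to form, Wnt7a is made by its epithelium and patterns the tract, and Wnt5a is made by its mesenchyme and is needed for its lower part.

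All values are log2 signals as the authors deposited them, and a log2 fold change is the mean of mutant arrays minus that of control arrays. The median signal of the array's background probes, between 5.35 and 5.88, marks the background level. With 3 arrays a group, precision is limited by the number of arrays and, for each gene, by the spread between them. Lats1 had log2 signals of 11.12, 11.77 and 11.60 in mutant ducts, against 12.51, 12.13 and 12.20 in control ducts (limma adjusted p = 0.0958). Lats2 overlapped between the groups, with 11.32 to 11.95 in mutant and 11.17 to 11.58 in control ducts. The sources used here do not place the probes on the floxed exons, so neither gene checks the deletion. Amhr2 fell to between 6.54 and 7.52 in mutant ducts, against 10.51 to 10.88 in control ducts (limma adjusted p = 0.000112).

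The control 3 array stood apart. Urothelial markers were high on it, with Upk2 at 12.21 there against 3.52 to 4.16 on the other 5 arrays, and a log2 summed signal of 6 markers of 10.73 to 10.90 in mutant and 10.71 to 14.62 in control ducts. Its smooth muscle markers deviated from their means by 1.96 on average, against 0.02 to 0.46 on mutant arrays and -2.12 and -0.49 on control 1 and control 2, and their log2 summed signal was 17.93 to 18.11 in mutant and 14.38 to 17.92 in control ducts. These markers did not move together. Myh11, Actg2 and Cnn1 were highest on control 3, whereas Tagln, a marker of contractile smooth muscle, was at 15.37, 15.26 and 15.02 in mutant ducts, against 11.52, 12.76 and 12.62 in control ducts, and rose 7.55-fold (limma adjusted p = 0.00108, and under the threshold in all 6 fits with 1 array left out). Acta2 was at 17.67 to 17.85 in mutant and 14.04 to 17.57 in control ducts (adjusted p = 0.191). Upk2, Upk3a and Psca were below background on the other 5 arrays. Averaged over 8 genes, duct epithelium markers were lowest in mutant 3, with a mean deviation of -0.50. The mean deviation was 0.33 and 0.35 in mutant 1 and mutant 2 and -0.32 to 0.40 in control ducts. Pax2, Pax8, Emx2 and Cdh1 were lowest in mutant 3, whereas Epcam, Krt8, Krt18 and Lhx1 were not, and Lhx1 was below background on all 6 arrays. Krt8 was at 8.84 in mutant 3, against 8.02 and 8.48 in control 1 and control 2. Pax8 was at 8.57 in mutant 3, against 10.23 and 10.12 in the other mutants. All 6 measured macrophage markers and 5 of 7 handling and stress genes rose in mutant ducts. The log2 summed signal of the macrophage markers was 13.63 to 13.87 in mutant and 12.19 to 12.42 in control ducts, and that of the stress genes was 13.45 to 13.48 in mutant and 11.99 to 12.27 in control ducts. The part of these cells and of handling in the Wnt results was not tested. In tissue of this kind, fewer cells of a type and less RNA per cell cannot be told apart.

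Of the 44 measured Wnt pathway genes, Sfrp4 fell and Lrp5 rose at a limma adjusted p under 0.05, taken over all transcript clusters. That is 4.55% of them, beside 3.26% of all transcript clusters, a share near the background. By direction, 2.59% of all transcript clusters rose and 0.666% fell. At an unadjusted limma p under 0.05 there were 12 of the 44, or 27.3%, against 15.3% of all transcript clusters. Of these, 9 were higher and 3 lower in mutant ducts, where 8.49% and 6.81% of all transcript clusters were. The groups did not overlap for 12 genes, 9 higher and 3 lower in mutant ducts, or 27.3% against 21.1% of all transcript clusters, of which 10.9% were higher and 10.2% lower. Both sets of 9 higher genes include Dkk1, which was below background on every array.

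The median log2 fold change of the 44 genes was -0.03, beside -0.01 over all transcript clusters, with 21 values above 0 and 23 below. Their median absolute log2 fold change was 0.31, beside 0.20 over all transcript clusters. Of the 44 genes, 34 were above background on all 6 arrays, while all transcript clusters include dim rows. This comparison and the shares above were not matched for signal. The 95% interval lay within a 2-fold change either way for 31 of the 44, or 70.5%, beside 84.8% of all transcript clusters. The other 13 were Wnt4, Wnt16, Fzd6, Fzd10, Lrp5, Rspo3, Sfrp1, Sfrp2, Sfrp4, Frzb, Dkk2, Lef1 and Axin2. Wnt2, Wnt6, Wnt7b, Wnt10a, Dkk1, Sfrp5 and Sp5 were below background on all 6 arrays, so no fold is read from them. The plot of log2 fold changes by role shows this spread on both sides of 0.

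**Figure D1:**
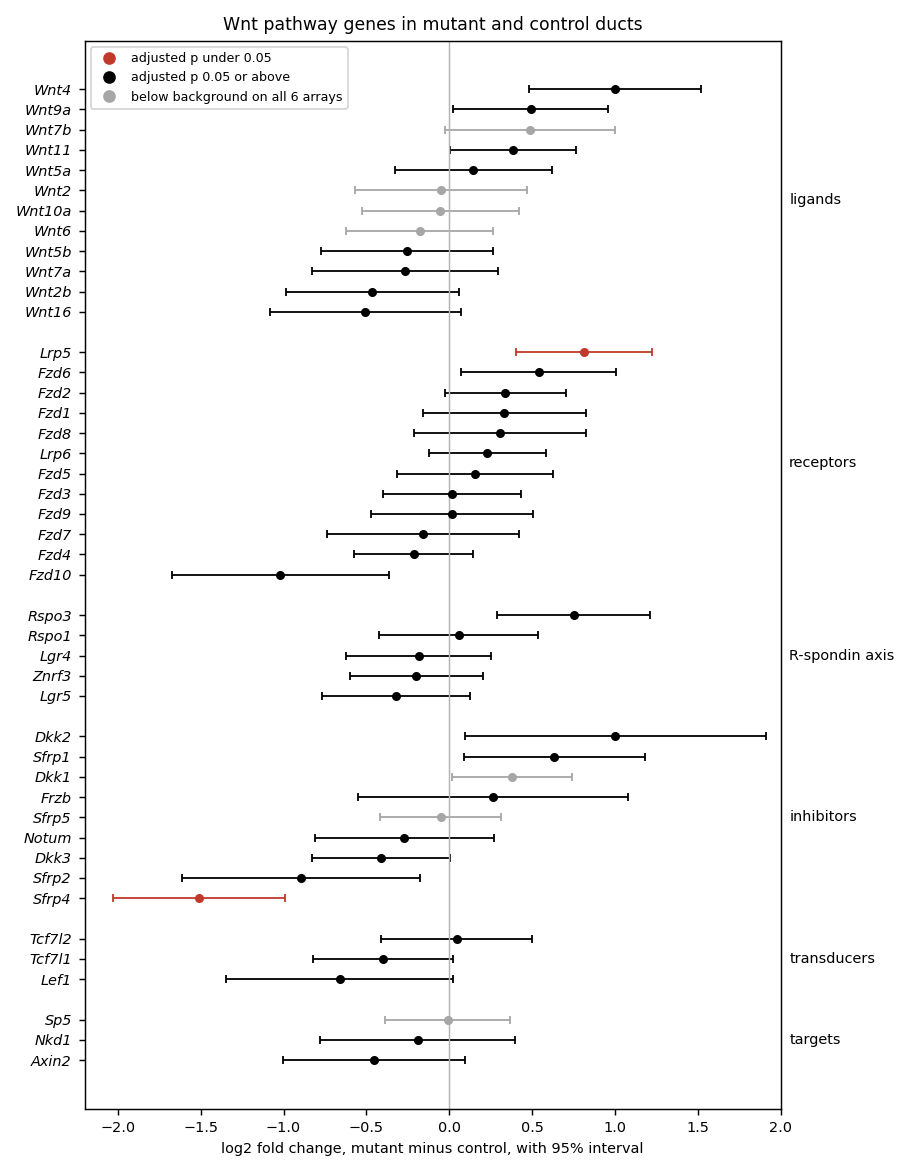
Log2 fold change, mutant minus control, of the 44 measured Wnt pathway genes (rows, grouped by role), with limma 95% intervals as bars. The genes past an adjusted p of 0.05 are Sfrp4 at -1.51 and Lrp5 at 0.81, and the 7 genes below background on all 6 arrays are drawn in grey.

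None of the 12 ligands passed the threshold, and 3 of them (25%), Wnt4, Wnt9a and Wnt11, were higher in mutant ducts at an unadjusted limma p under 0.05. Of all transcript clusters, 8.49% were higher at that p, and Wnt9a was close to background. Wnt4 had log2 signals of 10.53, 10.49 and 11.28 in mutant ducts, against 9.64, 9.87 and 9.81 in control ducts. Every mutant array lay above every control array, and mutant 3 was the highest. Its log2 fold change was 1.00 ± 0.23 (SE), or 2.00-fold, at an adjusted p of 0.0530 in limma and a 95% interval from 0.48 to 1.52. Wnt4 passed with quantile normalization (adjusted p = 0.0477) and missed the threshold with any 1 array left out (0.0675 to 0.187), with a log2 fold change of 0.74 without mutant 3.

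Wnt9a was at 5.99, 5.93 and 6.21 in mutant ducts, against 5.58, 5.90 and 5.19 in control ducts. These signals lay at most 0.55 above the background of their array, and control 3 was below it, and the log2 fold change was 0.49 (adjusted p = 0.304), or 0.31 without control 3. Wnt9a neighbours Wnt3a in the genome, and Wnt3a, which had the smallest p of the further ligands outside the 47, was below background on all 6 arrays, between 3.90 and 4.57 in mutant and 3.83 and 4.07 in control ducts. Wnt11, which acts mostly without beta-catenin, was at 7.83, 7.92 and 7.60 in mutant ducts, against 7.52, 7.40 and 7.28 in control ducts. The groups did not overlap, though mutant 3 lay close to control 1, and the log2 fold change of 0.38 ± 0.17 (SE) did not pass (adjusted p = 0.318).

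Wnt5a, the mesenchymal ligand, was at 11.16, 11.25 and 11.52 in mutant ducts, against 11.53, 11.12 and 10.85 in control ducts. Control 1 was the highest of all arrays, control 2 and control 3 lay below the mutants, and the 95% interval of the log2 fold change ran from -0.33 to 0.62. Wnt7a, the epithelial ligand, was at 8.0, 7.76 and 7.10 in mutant ducts, against 8.03, 8.01 and 7.61 in control ducts. It was lowest in mutant 3, the array with the lowest mean deviation of epithelial markers. Control 3 had the highest mean deviation of these markers (0.40) and the lowest Wnt7a signal of the controls. Control 1 and control 2, at -0.26 and -0.32 for the markers, had the highest Wnt7a signals. The markers differed among themselves on control 3. Cdh1 was at 12.34 there, against 9.46 to 10.31 on the other arrays, and Krt8 and Krt18 were also highest there. Pax8 and Emx2, at 9.58 and 11.85, were lower on control 3 than on the other controls, and Pax2 and Epcam lay between those controls. The part of epithelial content in the Wnt7a values was not tested. The interval for Wnt7a was -0.83 to 0.29, and without mutant 3 its log2 fold change was -0.00.

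Of the remaining ligands, Wnt2b had 9.94 to 10.67 in mutant and 10.51 to 10.93 in control ducts, with a log2 fold change of -0.47 ± 0.23 (SE, adjusted p = 0.393), or -0.70 to -0.33 with 1 array left out. Wnt5b overlapped between the groups, at 6.59 to 7.16 in mutant and 6.89 to 7.55 in control ducts. Wnt16 was close to background, with 5.17 to 5.89 in mutant and 5.56 to 6.32 in control ducts. The other 4 ligands were below background on all 6 arrays. Among these, Wnt6 and Wnt10a are neighbouring genes, and Wnt6 was at 4.32 to 4.69 in mutant and 4.52 to 5.03 in control ducts, Wnt10a at 4.78 to 5.09 and 4.62 to 5.33.

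Among the 12 receptors and coreceptors, 1 rose (8.33%) and none fell, beside 2.59% and 0.666% of all transcript clusters. Of the 12 log2 fold changes, 9 were above 0, and only that of Lrp5 passed the threshold. LRP5 is a coreceptor that Wnt brings together with a Frizzled. Lrp5 had log2 signals of 10.89, 10.73 and 10.64 in mutant ducts, against 10.15, 10.02 and 9.66 in control ducts. All mutant arrays were above all control arrays, with control 3 the lowest. It rose 1.75-fold, a log2 fold change of 0.81 ± 0.18 (SE), and limma gave an adjusted p of 0.0477. The call sat at the edge of the threshold. It was lost with each array left out in turn (adjusted p = 0.0802 to 0.174) and with quantile normalization (0.0612), and the log2 fold change stayed between 0.67 and 0.91. The second coreceptor, Lrp6, was at 13.02, 13.04 and 13.24 in mutant ducts, against 12.92, 12.81 and 12.88 in control ducts. Its groups did not overlap either, yet its log2 fold change was 0.23 with an interval from -0.12 to 0.58.

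Fzd10, a Frizzled that can signal through beta-catenin, was lower in every mutant array. Its log2 signals were 8.34, 8.57 and 7.35 in mutant ducts, against 9.04, 9.22 and 9.06 in control ducts. Mutant 3 was the lowest by far, while the control arrays lay close together. The log2 fold change of -1.02 ± 0.29 (SE) did not pass (adjusted p = 0.116, and 0.0776 to 0.275 with 1 array left out), and it was -0.65 without mutant 3. Mutant 3 was also the array with the lowest mean deviation of epithelial markers. In mutant 1 and mutant 2 that deviation was 0.33 and 0.35, and their Fzd10 signals were below every control too. Among the 8 epithelial markers, only Emx2 was likewise lower in every mutant array. Emx2 was at 11.75, 11.67 and 11.12 in mutant ducts, against 12.33, 12.47 and 11.85 in control ducts (limma adjusted p = 0.174). The part of epithelial content in the Fzd10 values was not tested.

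Fzd6, known for planar polarity of cells, was at 9.16, 9.81 and 9.58 in mutant ducts, against 8.76, 9.11 and 9.07 in control ducts. The groups did not overlap, and the log2 fold change was 0.54 ± 0.21 (SE, adjusted p = 0.251). Fzd2 was at 15.24, 15.41 and 15.36 in mutant ducts, against 15.06, 15.10 and 14.85 in control ducts. It too did not overlap, with a smaller difference of 0.34 (adjusted p = 0.367). The 7 further Frizzled genes overlapped between the groups, with log2 fold changes from -0.22 for Fzd4 to 0.33 for Fzd1. Fzd7 varied among control arrays, with 12.14, 11.28 and 12.31, while the mutant arrays lay between 11.72 and 11.81. Fzd9 was below background on all 3 mutant and on 2 of 3 control arrays.

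The R-spondin branch sets how many Frizzled receptors a cell displays: R-spondins bind LGR4 and LGR5 and remove the ubiquitin ligase ZNRF3, which itself is a feedback target of the pathway. None of its 5 measured genes passed the threshold. Rspo3 had the largest difference, with log2 signals of 11.78, 11.78 and 12.36 in mutant ducts, against 11.40, 11.19 and 11.09 in control ducts. The groups did not overlap, and mutant 3 was highest, as it was for Wnt4. The log2 fold change was 0.75 ± 0.21 (SE), with an adjusted p of 0.101 and an interval from 0.29 to 1.21. Rspo3 passed with a variance prior that follows the mean signal (adjusted p = 0.0407), and its log2 fold change was 0.55 without mutant 3. Rspo1 was at 11.30, 11.04 and 11.62 in mutant ducts, against 11.59, 11.11 and 11.10 in control ducts, with overlapping groups and an interval from -0.42 to 0.54.

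Lgr5, a receptor gene and itself a beta-catenin target, was at 9.22, 9.0 and 8.73 in mutant ducts, against 9.45, 9.44 and 9.03 in control ducts. The groups overlapped and the interval ran from -0.77 to 0.13, with log2 fold changes from -0.46 to -0.19 when 1 array was left out. Lgr4 was at 10.65, 10.53 and 10.22 in mutant ducts, against 10.43, 10.91 and 10.61 in control ducts. Znrf3 lay between 10.75 and 11.21 in mutant and 11.02 and 11.21 in control ducts, with an interval from -0.60 to 0.21.

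**Figure D2:**
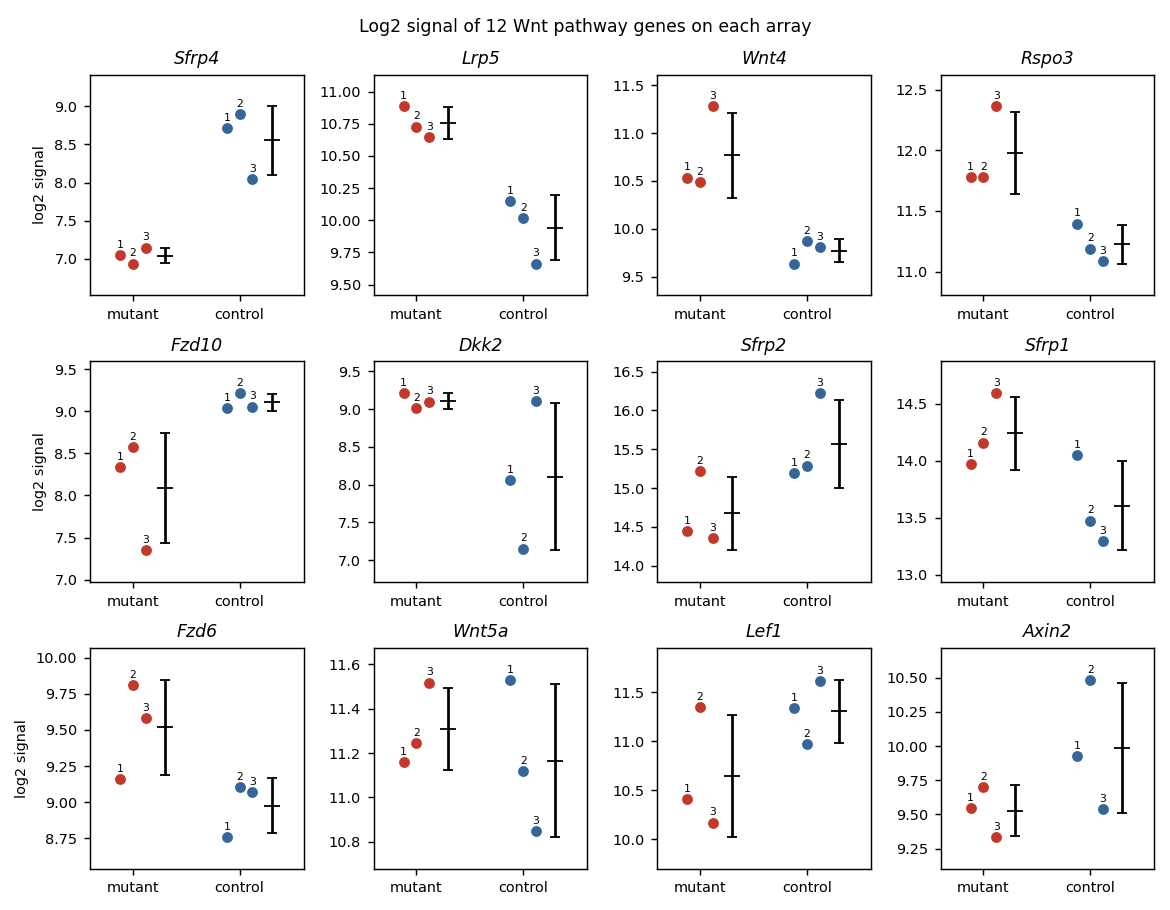
Log2 signal (y axes, each with its own range) of 12 Wnt pathway genes on the mutant arrays (left, red) and control arrays (right, blue), numbered by replicate, with bars for the mean and SD of 3 arrays. Sfrp4 lies between 6.94 and 7.15 on mutant and 8.05 and 8.90 on control arrays, Dkk2 is as high in control 3 as in mutant ducts, and Wnt5a overlaps.

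Of the 9 secreted inhibitors, 1 fell (11.1%) and none rose, beside 0.666% and 2.59% of all transcript clusters. An unadjusted limma p under 0.05 was seen for 5, with 3 of these higher and 2 lower in mutant ducts. That is 55.6% of 9 genes, beside 15.3% of all transcript clusters. The 3 higher genes include Dkk1, which was below background on every array, so no direction is read from it and the share counts a dim gene. SFRP4 is a secreted Frizzled-related protein that binds Wnts outside the cell. Sfrp4 had log2 signals of 7.05, 6.94 and 7.15 in mutant ducts, against 8.71, 8.90 and 8.05 in control ducts. The mutant arrays lay close together and all below the lowest control, which was control 3. It fell 2.85-fold, a log2 fold change of -1.51 ± 0.23 (SE), for which limma gave an adjusted p of 0.00755 and an interval from -2.03 to -0.99. The call held with each array left out in turn (adjusted p = 0.00171 to 0.0410) and without both control 3 and mutant 3 (-1.82, adjusted p = 0.00488). Mutant signals of Sfrp4 were 1.13 to 1.37 above the background of their array, and control signals 2.19 to 3.55 above it. The mean deviation of 5 duct mesenchyme markers was -0.66 to -0.34 in mutant and 0.42 to 0.61 in control ducts. Of these markers, only Amhr2, the gene that holds Cre in the mutants, passed the threshold. Tcf21 and Col3a1 were lower in every mutant array, and Osr2 and Col1a1 overlapped. The part of mesenchyme content in the Sfrp4 values was not tested.

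None of the other measured SFRP genes passed the threshold. Sfrp2 was at 14.45, 15.22 and 14.35 in mutant ducts, against 15.19, 15.29 and 16.23 in control ducts. Mutant 2 overlapped the controls and control 3 was the highest. Sfrp2 had a log2 fold change of -0.90 ± 0.32 (SE, adjusted p = 0.211), and -0.57 without control 3. Sfrp1 was at 13.97, 14.16 and 14.60 in mutant ducts, against 14.05, 13.48 and 13.30 in control ducts, a log2 fold change of 0.63 ± 0.24 (SE, adjusted p = 0.250). Control 1 overlapped the mutants. Frzb, which encodes a further SFRP-like Wnt antagonist, overlapped widely, with 9.68, 9.87 and 8.54 in mutant ducts, against 9.29, 8.54 and 9.46 in control ducts.

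The DKK genes encode antagonists that act on the LRP coreceptors, except DKK3, whose role in the pathway is less clear. Dkk2 was at 9.22, 9.01 and 9.10 in mutant ducts, against 8.06, 7.15 and 9.11 in control ducts. Control 3 was as high as the mutants, and the other controls were lower. Over all arrays the log2 fold change was 1.00 ± 0.40 (SE, adjusted p = 0.273). Without control 3, the array with high urothelial and smooth muscle markers, it was 1.5, and limma gave an adjusted p of 0.0201. Without control 2, the lowest array, it was 0.53 (adjusted p = 0.504). Without both control 3 and mutant 3 it was 1.51 (adjusted p = 0.0477). Smooth muscle markers differed in the fit without control 3 as well. Acta2, Cnn1 and Tagln were higher in mutant ducts there, with log2 fold changes of 2.89, 3.08 and 3.08 (limma adjusted p = 0.00712, 0.0178 and 0.00171). Myh11, Actg2 and Des did not pass in that fit. The part of urothelial and smooth muscle cells in the Dkk2 values, with or without control 3, was not tested. Dkk3 was at 8.49, 8.02 and 8.04 in mutant ducts, against 8.47, 8.66 and 8.67 in control ducts, an interval of -0.83 to 0.00. Dkk1 had an unadjusted p of 0.0420, but all its signals, 4.64 to 4.74 in mutant and 4.17 to 4.47 in control ducts, were below background. Notum, an enzyme that removes the lipid from Wnts and a target of the pathway, was at 6.81 to 7.59 in mutant and 7.38 to 7.86 in control ducts.

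**Figure D3:**
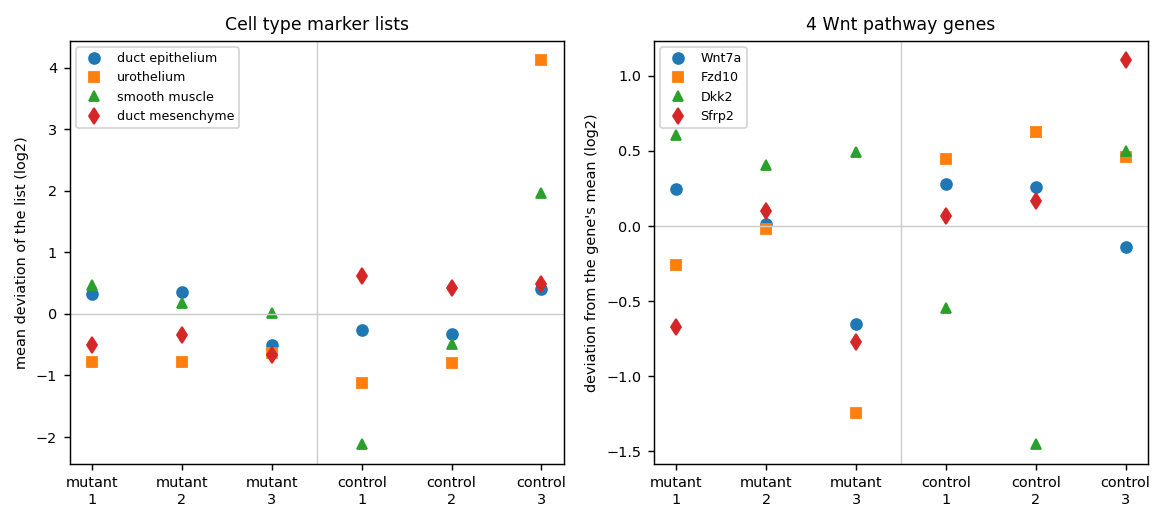
Left, mean deviation of 4 marker lists from each gene's mean over the 6 arrays (log2 units), by array; right, the same deviation of Wnt7a, Fzd10, Dkk2 and Sfrp2. Control 3 has the highest urothelial (4.13) and smooth muscle (1.96) values, and mutant 3 has the lowest Wnt7a and Fzd10 signals.

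None of the 3 measured TCF/LEF factors and none of the 3 feedback targets passed the threshold. Lef1, both a nuclear partner of beta-catenin and a target of the pathway, was at 10.41, 11.35 and 10.17 in mutant ducts, against 11.34, 10.97 and 11.61 in control ducts. Mutant 2 lay among the controls, and the other mutants below them. Lef1 differed by -0.66 ± 0.31 on the log2 scale (SE, adjusted p = 0.348), with an interval from -1.35 to 0.03. It was -1.02 without mutant 2 (adjusted p = 0.0786) and -0.43 without mutant 3. Tcf7l1, which mostly represses targets, was at 10.57, 10.59 and 10.40 in mutant ducts, against 11.25, 10.79 and 10.72 in control ducts. The groups did not overlap, at a log2 fold change of -0.40 (adjusted p = 0.360) that lay between -0.50 and -0.24 with 1 array left out. Tcf7l2 overlapped, with 14.66 to 15.03 in mutant and 14.47 to 15.08 in control ducts.

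Axin2, a negative feedback gene widely used to read out beta-catenin signalling, was at 9.55, 9.70 and 9.33 in mutant ducts, against 9.92, 10.48 and 9.54 in control ducts. The mutant arrays were lower on average, but control 3 lay among them. The log2 fold change of -0.45 ± 0.24 (SE) had an adjusted p of 0.432, an interval from -1.0 to 0.09, and values from -0.68 to -0.20 with 1 array left out. Nkd1, another feedback inhibitor, was at 10.16, 10.81 and 9.85 in mutant ducts, against 10.72, 10.18 and 10.49 in control ducts. Sp5, a transcription factor induced directly by beta-catenin, was below background everywhere, at 3.60 to 3.84 in mutant and 3.63 to 3.93 in control ducts.

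Promoters from RefSeq (GRCm38.p6, 250 bases before to 50 after the start) were found for 31 of the 47 genes, in 41 windows. They were searched on both strands for the TCF/LEF letters CTTTGAT and CTTTGAA and for the TEAD letters GGAATG, since TEAD factors carry YAP, the coactivator restrained by LATS kinases, to DNA. The TCF/LEF letters were in 4 of the 41 windows (9.76%), against 8.65% of all 32851 windows. The TEAD letters were in 2 of the 41 (4.88%), against 14.7% of all. The windows of Wnt11, Lgr4 and Sp5 are shown because each holds a match and stands for another role, ligand, receptor and target. Matches are in capitals.
Wnt11: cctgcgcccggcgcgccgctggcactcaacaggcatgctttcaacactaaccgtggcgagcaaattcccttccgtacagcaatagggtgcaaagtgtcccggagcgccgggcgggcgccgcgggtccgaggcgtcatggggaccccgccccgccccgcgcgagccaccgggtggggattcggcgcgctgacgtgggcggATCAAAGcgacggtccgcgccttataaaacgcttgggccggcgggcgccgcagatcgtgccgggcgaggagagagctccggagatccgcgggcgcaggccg
Lgr4: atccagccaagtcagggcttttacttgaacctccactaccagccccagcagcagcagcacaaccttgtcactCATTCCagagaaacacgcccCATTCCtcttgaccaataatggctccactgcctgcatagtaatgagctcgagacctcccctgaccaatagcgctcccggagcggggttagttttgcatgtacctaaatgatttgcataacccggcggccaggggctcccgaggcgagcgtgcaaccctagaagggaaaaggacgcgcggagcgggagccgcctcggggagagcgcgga
Sp5: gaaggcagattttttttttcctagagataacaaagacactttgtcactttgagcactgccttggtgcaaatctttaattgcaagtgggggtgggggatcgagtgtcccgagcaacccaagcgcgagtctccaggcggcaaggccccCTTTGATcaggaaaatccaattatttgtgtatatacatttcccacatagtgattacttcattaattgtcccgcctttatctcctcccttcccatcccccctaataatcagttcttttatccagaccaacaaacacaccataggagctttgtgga
The Wnt11 window is chr7:98834862-98835161 on the plus strand, 1 of 2 for this gene, and holds the reverse of a TCF/LEF match starting 51 bases before the start site. The Lgr4 window is chr2:109917397-109917696, plus strand, with TEAD letters 178 and 158 bases before the start. The Sp5 window is chr2:70474673-70474972, plus strand, with TCF/LEF letters 104 bases before the start. Beside these letters stand the values already given: Wnt11 at a log2 fold change of 0.38, Lgr4 at -0.19, neither past the threshold, and Sp5 below background in both groups. A match describes the letters and does not show binding.

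Further Wnt pathway genes outside these 47 were read from a list of 74, of which 71 were measured. Of these, 2 rose and 1 fell, which is 4.23% beside the 3.26% of all transcript clusters. Cd44, which encodes a hyaluronan receptor and is a reported target of beta-catenin, had log2 signals of 11.27, 11.35 and 11.61 in mutant ducts, against 9.81, 10.27 and 10.18 in control ducts. Every mutant array was well above every control array. It rose 2.5-fold, a log2 fold change of 1.32 ± 0.19 (SE, limma adjusted p = 0.00529), and held with each array left out (0.0114 to 0.0259). Macrophages also make Cd44, and the macrophage markers rose on the same arrays. Their part in the Cd44 rise was not tested. It was the 1 call among 9 measured targets in this list. Myc, named after its values were seen, was at 13.91, 14.20 and 13.14 in mutant ducts, against 13.66, 13.68 and 13.95 in control ducts.

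Prickle1, a core gene of planar cell polarity, was at 10.98, 11.25 and 11.17 in mutant ducts, against 10.32, 10.28 and 10.28 in control ducts. It rose 1.79-fold, a log2 fold change of 0.84 ± 0.16 (SE, limma adjusted p = 0.0207), and its call was lost with each array left out (0.0536 to 0.0789), while the log2 fold change stayed between 0.78 and 0.92. It was the 1 call among 14 measured coreceptor and planar polarity genes, of which 4 (28.6%, beside 15.3% of all transcript clusters) had an unadjusted p under 0.05, all higher in mutant ducts, where 8.49% of all transcript clusters were. The others, named after their values were seen, were Daam1, Ryk and Ror2, with log2 fold changes of 0.59, 0.49 and 0.45 and adjusted p of 0.132, 0.160 and 0.278.

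Cby1, which encodes a beta-catenin antagonist, fell 1.77-fold. It was at 7.82, 8.08 and 7.92 in mutant ducts, against 8.76, 8.99 and 8.55 in control ducts, a log2 fold change of -0.83 ± 0.18 (SE, limma adjusted p = 0.0385). Its call was lost in 5 of the 6 fits with 1 array left out (up to 0.148) and held without control 3 (0.0370), with log2 fold changes from -0.94 to -0.72. Of the inhibitors outside the 47, Apcdd1, a membrane protein that inhibits Wnt signalling, was at 13.64, 14.51 and 13.17 in mutant ducts, against 15.27, 14.97 and 14.96 in control ducts. The groups did not overlap, and mutant 2 was nearest to the controls. The log2 fold change of -1.29 ± 0.31 (SE) missed the threshold (adjusted p = 0.0584) and passed without mutant 2 (-1.66, adjusted p = 0.00821), with array weights (0.0315) and when the dimmest rows were dropped, those below the 25th percentile (0.0488) or below the median (0.0305).

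Wls, which carries Wnts to the cell surface, was at 13.12, 13.14 and 13.28 in mutant ducts, against 12.26, 12.91 and 12.46 in control ducts. All mutants were above all controls, at a log2 fold change of 0.64 ± 0.20 (SE, adjusted p = 0.149). Of the 16 measured Dishevelled and destruction complex genes, Dact2 had the smallest p, with 5.48 to 5.72 in mutant ducts, below background on 2 arrays, against 5.93 to 6.32 in control ducts (adjusted p = 0.164). Lgr6 had the smallest p of 3 further R-spondins and receptors, at 5.83 to 6.76 in mutant and 5.41 to 6.35 in control ducts (adjusted p = 0.508). Of the 7 further ligands, 6 were below background on all 6 arrays.

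**Figure D4:**
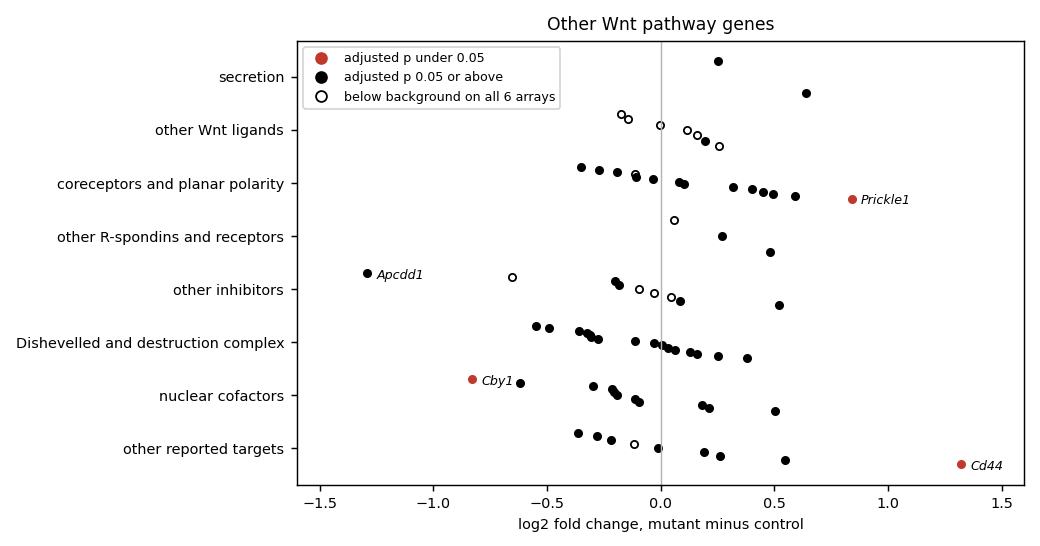
Log2 fold change, mutant minus control, of 71 other measured Wnt pathway genes (points), in rows by role. Cd44 (1.32), Prickle1 (0.84) and Cby1 (-0.83) are past an adjusted p of 0.05, and Apcdd1 (-1.29, adjusted p = 0.0584) is labelled for its size.

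**Figure D5:**
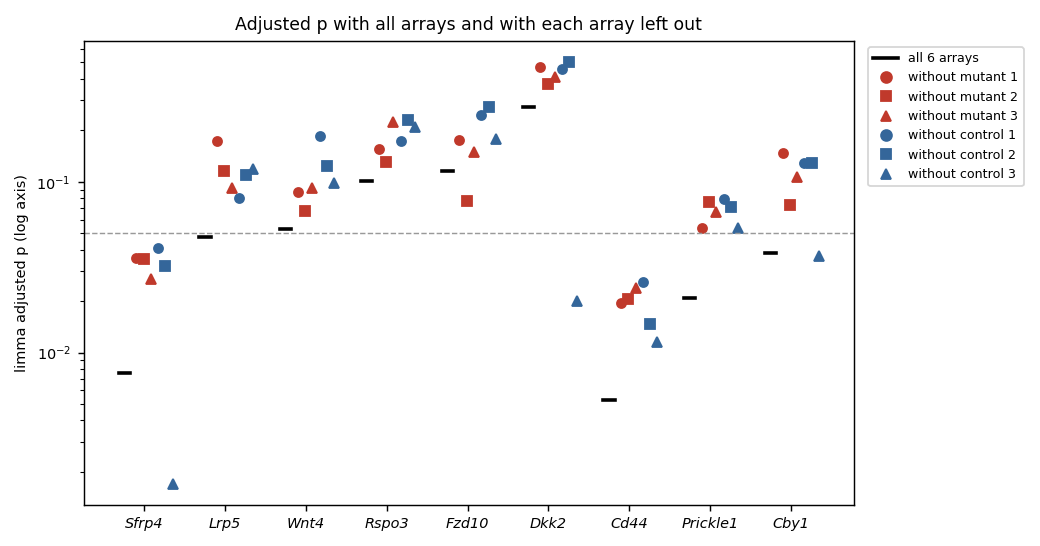
Limma adjusted p (log axis) of 9 genes with all 6 arrays (black bar) and with each array left out (points, red for a mutant and blue for a control array), with a dashed line at 0.05. Sfrp4 and Cd44 stay under the line in every fit, Lrp5, Prickle1, Wnt4, Rspo3 and Fzd10 lie above it in each fit that leaves out an array, and Dkk2 is under it without control 3.

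The plot of adjusted p by left-out array shows how 9 genes fared with 5 arrays. Sfrp4 and Cd44 passed in each of the 6 fits, Cby1 and Dkk2 in the fit without control 3, and Lrp5, Wnt4, Rspo3, Fzd10 and Prickle1 in none. Fits with 5 arrays call fewer transcript clusters in all, between 360 and 697 against 723.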

How the data were processed

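Total RNA of ducts from 6 embryos was hybridised to Affymetrix arrays, 1 per embryo. Transcriptome Analysis Console 4.0 is named in the submitters' processing notes and the sources used here do not say how probes were summarised and normalized. The deposited table holds log2 signals with array medians between 6.87 and 6.95, used without further normalization. Control rows were left out and no filter on dim rows was applied. Gene symbols were read from the platform annotation, which names 1 symbol for 19572 rows. No build was given, so no coordinates are printed except those of RefSeq promoters.

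A limma 3.58.1 model (lmFit, eBayes; R 4.3.3) held genotype alone and was fitted to all 22206 rows, two-sided, with Benjamini-Hochberg adjustment over all rows and a threshold of 0.05. The fit was tested on simulated data. Replicates are called biological in the labels. A gene is called below background on an array under the median of its 23 background probes.

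The 47 genes and the other lists were chosen with earlier results of these data known. Per-array values are given for genes with an unadjusted p under 0.05 and for Wnt4, Wnt5a, Wnt7a, Axin2, Lef1, Sp5 and Lgr5, and of other pathway genes for those past the threshold and the smallest p of each list. Values of further genes account for all members. Alternatives were 2 normalizations, 2 filters on dim rows, a trended and robust prior, array weights, a replicate block, the mean of a gene's rows and each array left out. The 44 measured genes had 1 row each, so the mean of a gene's rows left their signals unchanged. Leaving out control 3 and mutant 3 together was added after seeing the data. Figures were drawn with matplotlib 3.10.9.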

Additional observations from a re-analysis of the deposited data

How the results depend on the processing

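Of the 2 calls among the 44 measured genes, the fall of Sfrp4 was called under every alternative run (adjusted p = 0.00171 to 0.0410), whereas the rise of Lrp5 was not. The number of calls was 3 of 39 tested members without rows under the 25th percentile of mean signal and 3 of 44 with array weights, where 4.95% and 3.92% of all transcript clusters were called, against 3.26% of them with all rows and equal weights. It was 4 of 34 without rows under the median (11.8%, beside 8.32% of all) and 4 of 44 with the trended and robust prior (9.09%, beside 4.47%), and between 1 and 2 with 1 array left out, where the second was Dkk2 without control 3. Rises alone numbered 2 without rows under the 25th percentile and with array weights, 3 without rows under the median and with the trended prior, and 0 to 1 with 1 array left out. The added rises were Wnt4 (adjusted p = 0.0211 to 0.0430 under these 4 settings) and Rspo3 (0.0476 and 0.0407). With the replicate block, 1 gene passed and 0 rose (Lrp5 at 0.0616), 1 of the 3 other pathway genes passed (Cd44), and 633 transcript clusters passed in all; the labels' numbers share only a number, with same-numbered deviations correlated at 0.0078, 0.042 and -0.0030, and only mutant 2 among the mutants correlated best with its own number. The 3 calls among other pathway genes became 1 without control 3 and mutant 3 together and 1 to 2 with 1 array left out. With array weights and with either filter, 4 other pathway genes passed, Apcdd1 being the fourth, and with the trended prior 4 passed, Ryk being the fourth. With 1 array left out, calls over all transcript clusters were 360 without mutant 1, 384 without control 1, 454 without control 2 and at most 697. Under the other alternatives with all 6 arrays and no block they were 728 to 993. Genes whose groups did not overlap numbered 13 to 20 of 44 with 1 array left out. They were 20 (45.5%) without control 3, beside 32.1% of all transcript clusters, and 13 (29.5%) without control 2, beside 31.3%. The log2 fold change of Wnt5a was -0.016 to 0.33 with 1 array left out, below 0 without control 3, and turned without control 3 and mutant 3 together (-0.12). The difference of Sp5, below background and with no direction read from it, turned with a common median (0.0079), without control 3 and mutant 3 together (0.0014) and, within -0.071 to 0.078 over the fits with 1 array left out, without mutant 3 (0.062) and without control 1. Neither was called in any fit. The causes were not tested. Of 355 refits of named genes, 312 kept direction and side of the threshold, 13 gained the call, 24 lost it and 6 turned sign. Signals near background limit what can be said of Wnt9a, Wnt16, Fzd9 and the 7 genes below it.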
